A study of Homo sapiens with 8 samples.

Results

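Peaks of mTOR in introns, away from annotated repeats and transcription start sites, were examined in LNCaP, an androgen-responsive human line derived from prostate cancer. mTOR-bound chromatin had been immunoprecipitated and sequenced (ChIP-seq), and the deposited peak lists were used. A non-repeat intronic peak was a peak on chromosomes 1 to 22, X or Y that was annotated to an intron, had a GC content below 60%, lay more than 1000 bp from the nearest transcription start site (TSS) and carried no repeat entry in its detailed annotation. There were 3242 such peaks of 39570 in the shFoxA1 R1881 list, 2136 of 35121 in shFoxA1 EtOH, 1829 of 26074 in shEV R1881 and 1194 of 24948 in shEV EtOH, which makes 8401 of 125713 in all. The cells carried a short hairpin against FoxA1 (shFoxA1) or an empty hairpin vector (shEV). All had 48 h of androgen deprivation (2% charcoal-stripped serum) and then received 10 nM R1881, a synthetic androgen, or the vehicle ethanol (EtOH, 0.1%) for 24 h. Each combination had 1 immunoprecipitated library, so no difference has a replicate check and no p-value is given. The labels give neither the hairpin sequence nor whether the lines were clones, and peak lists do not show the level of FoxA1. The 4 input libraries were not analysed here. Without read totals the depth of each library is unknown, so a longer list cannot be told apart from a deeper or better enriched library.

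mTOR is the serine/threonine kinase at the centre of complexes that couple nutrients and growth factors to growth and metabolism, and a fraction of it is found in the nucleus. FoxA1 is a pioneer transcription factor of luminal prostate cells that opens chromatin for other factors. Many androgen-responsive enhancers of prostate cells lie in introns or between genes rather than at promoters, which is why intronic peaks are of interest here. A peak is assigned below to its nearest gene as the deposited annotation gives it, and the host is the gene whose intron holds it. The deposited score of a peak ranks it within its own list, and scores were not compared between lists.

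The sequence of a peak could be shown where a promoter window of the RefSeq table (GRCh38.p14, from 250 bases before to 50 after a gene's start) overlapped it, which was so for 43 windows at 40 merged regions. These peaks thus lie at or near a RefSeq gene start, although the deposited annotation put them more than 1000 bp from a TSS. They need not be typical of the 5987 merged regions with a non-repeat intronic peak. The 7 stretches below show 1 or more regions of each kind the results turn on. Each runs 5′ to 3′ on the strand named. Capitals mark AGAACA, the core hexamer of the androgen response element, and the forkhead motifs TGTTTAC and TGTTTGC, searched on both strands. The first 4 lay in peaks of both R1881 lists and neither EtOH list, the fifth in peaks of all 4 lists, the sixth in peaks of both EtOH lists only and the last in peaks of both shFoxA1 lists only.
PPFIBP2 intron 1, chr11:7538490-7538789, minus strand: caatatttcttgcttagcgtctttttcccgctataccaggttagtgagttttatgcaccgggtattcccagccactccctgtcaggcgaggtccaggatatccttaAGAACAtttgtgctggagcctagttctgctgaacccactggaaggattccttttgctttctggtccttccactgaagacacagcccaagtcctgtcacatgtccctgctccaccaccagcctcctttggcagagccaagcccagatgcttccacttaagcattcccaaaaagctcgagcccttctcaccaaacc
UBAP1 intron 1, chr9:34186025-34186324, plus strand: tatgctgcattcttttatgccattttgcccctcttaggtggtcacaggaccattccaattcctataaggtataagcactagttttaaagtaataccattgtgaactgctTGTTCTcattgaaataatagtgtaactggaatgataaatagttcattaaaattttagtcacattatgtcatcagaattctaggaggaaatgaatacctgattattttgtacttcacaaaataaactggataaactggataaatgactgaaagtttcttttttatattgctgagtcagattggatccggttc
FRMD4A intron 2, chr10:13991432-13991629, plus strand: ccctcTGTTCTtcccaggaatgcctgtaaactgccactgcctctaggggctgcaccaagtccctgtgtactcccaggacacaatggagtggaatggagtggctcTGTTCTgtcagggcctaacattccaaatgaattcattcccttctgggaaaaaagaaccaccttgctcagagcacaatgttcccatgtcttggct
TRPM8 intron 9, chr2:233953503-233953757, plus strand: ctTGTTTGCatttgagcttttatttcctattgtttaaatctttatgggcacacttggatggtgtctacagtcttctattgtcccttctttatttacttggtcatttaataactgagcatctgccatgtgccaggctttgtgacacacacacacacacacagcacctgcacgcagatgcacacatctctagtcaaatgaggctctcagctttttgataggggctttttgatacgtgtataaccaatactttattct
MAPKAP1 intron 7, chr9:125538033-125538332, plus strand: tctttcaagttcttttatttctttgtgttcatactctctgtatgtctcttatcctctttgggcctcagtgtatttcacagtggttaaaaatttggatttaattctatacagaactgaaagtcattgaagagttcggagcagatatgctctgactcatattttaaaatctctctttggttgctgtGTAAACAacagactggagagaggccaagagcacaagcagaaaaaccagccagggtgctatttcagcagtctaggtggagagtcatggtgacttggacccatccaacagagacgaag
LINC02355 intron 12, chr4:149264376-149264583, minus strand: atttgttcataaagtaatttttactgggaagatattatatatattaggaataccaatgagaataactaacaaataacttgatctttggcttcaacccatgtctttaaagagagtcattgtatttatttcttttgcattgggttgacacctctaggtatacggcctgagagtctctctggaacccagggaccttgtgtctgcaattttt
NECTIN4 intron 1, chr1:161083576-161083875, plus strand: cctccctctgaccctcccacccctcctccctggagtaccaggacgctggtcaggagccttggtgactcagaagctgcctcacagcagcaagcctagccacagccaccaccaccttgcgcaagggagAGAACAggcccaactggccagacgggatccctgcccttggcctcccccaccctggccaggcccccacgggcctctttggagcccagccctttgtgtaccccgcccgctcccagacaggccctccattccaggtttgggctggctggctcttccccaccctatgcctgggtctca
Of the 43 stretches, 6 held AGAACA, 3 held TGTTTAC and 3 held TGTTTGC. Among all 34943 RefSeq promoter windows, whose full length some stretches do not reach, 14.8%, 3.42% and 3.89% held these motifs. The full palindromic androgen response element, with the hexamer on either side of a short spacer, was in 0 of the 43 stretches and in 1 of the 34943 windows. Of the 4 stretches from R1881-only regions, those at PPFIBP2 and UBAP1 held AGAACA once, that at FRMD4A held 2 copies and that at TRPM8 held TGTTTGC. A match describes the letters of the window and is not a bound site.

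Non-repeat intronic peaks made up a larger share of the R1881 lists than of the EtOH lists. The share was 8.19% of the shFoxA1 R1881 list (95% interval 7.93 to 8.47) and 6.08% of shFoxA1 EtOH (5.84 to 6.34), against 7.01% of shEV R1881 (6.71 to 7.33) and 4.79% of shEV EtOH (4.53 to 5.06). These and all further intervals are Wilson intervals for shares, exact intervals for ratios of counts or log-scale intervals for odds ratios, and cover counting error only. From rank 1001 on, the share within each list grew towards the weaker peaks. In shFoxA1 R1881 it was 4.70% at ranks 1001 to 5000 and 9.91% from rank 20001 on, and in shEV R1881 it was 5.08% and 9.20%. In shFoxA1 EtOH the same ranks held 2.80% and 8.62%, and in shEV EtOH 3.03% and 6.87%. Each of the 4 rank classes from there on had a larger share with R1881 than with EtOH for both hairpins. In the top 1000 the shares were 5.50% for shFoxA1 R1881 and 4.10% for shFoxA1 EtOH, and 3.90% for both shEV lists, and all 4 intervals overlapped.

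**Figure D1:**
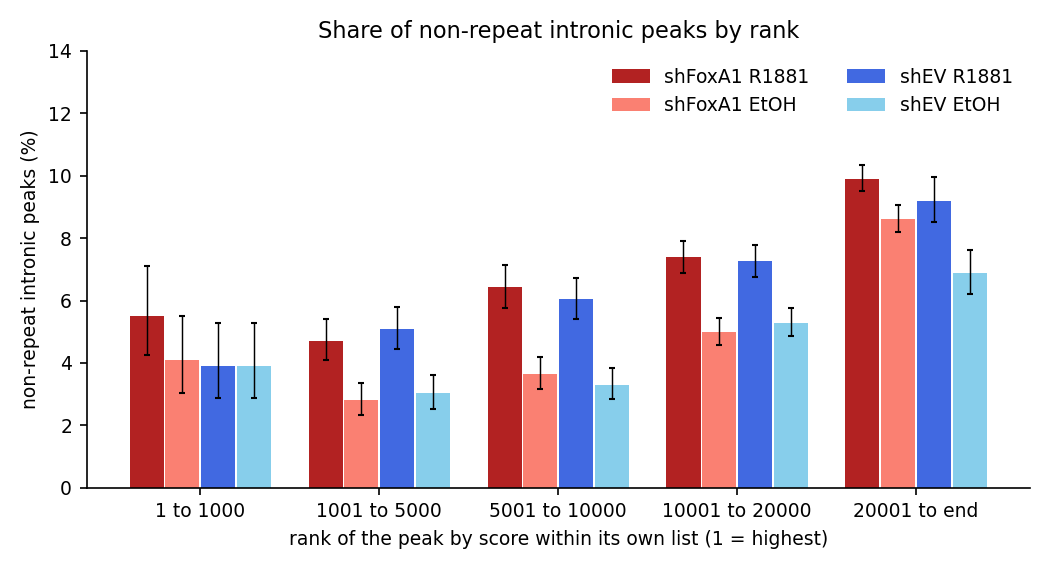
Share of non-repeat intronic peaks (y axis, percent) among the peaks of each rank class (x axis, rank by score within the list, 1 the highest) in the 4 lists; whiskers are 95% Wilson intervals for counting error. At ranks 5001 to 10000 the R1881 lists reached 6.42% with shFoxA1 and 6.04% with shEV, and the EtOH lists 3.64% and 3.30%.

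The peaks resembled each other in form across the 4 lists. Median width was 475 bp in shFoxA1 R1881, 449 bp in shFoxA1 EtOH, 436 bp in shEV R1881 and 450.5 bp in shEV EtOH. Median GC content was 45.7%, 46.2%, 43.6% and 44.4% in the same lists. The median score was 49 in both shFoxA1 lists and 50 in both shEV lists, and the highest scores were 7452, 7864, 6603 and 6661. Intron 1 of the host gene held 35.6%, 34.5%, 33.6% and 31.9% of the peaks. Among intronic peaks in repeats with the same GC and distance limits, intron 1 held 31.6%, 30.3%, 30.5% and 30.2%, and the intervals of the 2 classes overlapped in both shEV lists but in neither shFoxA1 list. The non-repeat peaks lay nearer to start sites. Between 1 and 5 kb from a TSS lay 15.3% of them in shFoxA1 R1881, 16.2% in shFoxA1 EtOH, 14.8% in shEV R1881 and 15.6% in shEV EtOH, whereas for intronic peaks in repeats it was 8.36%, 7.42%, 7.65% and 6.52%. A sizeable share was assigned to a gene other than the host, between 32.8% in shFoxA1 R1881 and 34.7% in shEV EtOH. The host was protein-coding for 88.4% to 89.6% of the peaks with a matched transcript. At the limits of the rule, in shFoxA1 R1881, 161 peaks had a GC content of 58% to under 60% and 158 otherwise eligible peaks 60% to under 62%, with a median score of 49 in each. Just beyond the distance limit of 1000 bp lay 53 members of that list, and 48 otherwise eligible peaks lay just within it, in a window of equal width. In shEV EtOH the corresponding numbers were 53 and 50 for GC content and 20 and 33 for distance.

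Treatment with R1881 was compared with EtOH first in shFoxA1 and then in shEV cells, to ask how androgen changes the set of mTOR peaks. The R1881 list held 1.52 times as many non-repeat intronic peaks as the EtOH list in shFoxA1 cells (interval 1.44 to 1.60) and 1.53 times as many in shEV cells (1.42 to 1.65). All peaks together were 1.13 times (1.11 to 1.14) and 1.05 times (1.03 to 1.06) as many. Non-repeat intergenic peaks were also more numerous, 1.52 times in shFoxA1 and 1.34 times in shEV, so a ratio of this size was also seen between genes. Intronic peaks in repeats reached 1.15 and 1.06 times, promoter peaks 1 and 0.949 times, and peaks with 60% GC or more outside promoters 0.941 and 0.868 times. Non-repeat intronic peaks were more numerous with R1881 on 23 of the 24 chromosomes in both pairs, and all peaks were more numerous on 22 in shFoxA1 and 21 in shEV.

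**Figure D2:**
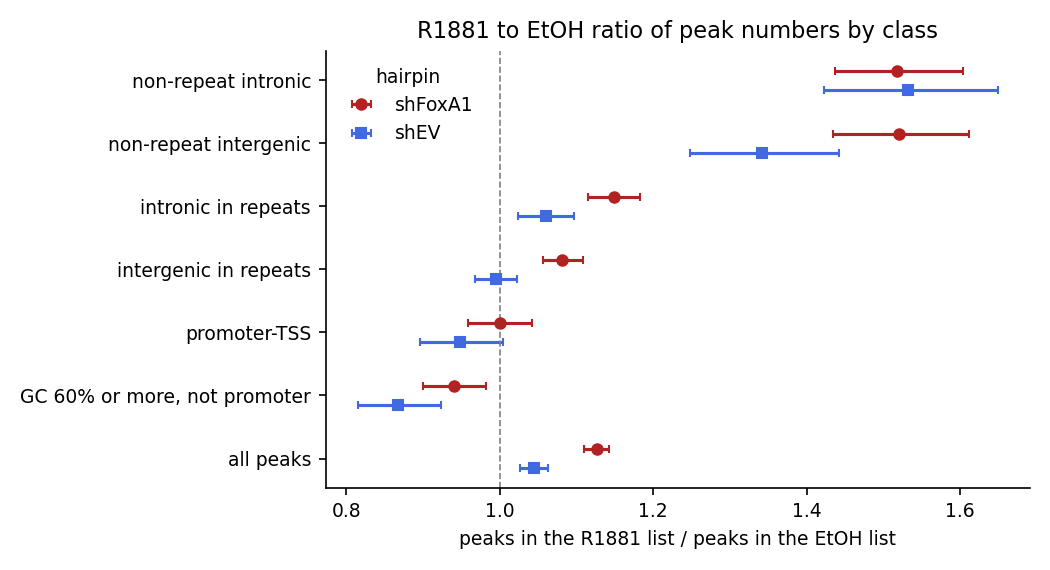
Number of peaks in the R1881 list divided by the number in the EtOH list (x axis) for each annotation class (y axis), with shFoxA1 above shEV; whiskers are 95% intervals for counting error and the dashed line marks equal numbers. Non-repeat intronic peaks lie at 1.52 and 1.53 and promoter peaks at 1 and 0.949.

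In a pair of lists, a peak of the condition named first was called gained where it shared not even 1 bp with a peak of the second list. A peak of the second list was called lost in the converse case. In shFoxA1 cells 2182 of the 3242 non-repeat intronic R1881 peaks were gained (67.3%) and 1121 of the 2136 EtOH peaks were lost (52.5%). Over all peaks of these lists 44.5% were gained and 37.5% lost. In shEV cells 1311 of 1829 were gained (71.7%) and 676 of 1194 lost (56.6%), against 45.0% and 42.6% of all peaks. The members therefore changed in both directions more often than the background, and gains outnumbered losses. Non-repeat intergenic peaks did so too, with 62.1% gained and 44.8% lost in shFoxA1 and 60.2% and 51.0% in shEV. Members also had lower median scores than all peaks of their list. It was 49 against 65 in shFoxA1 R1881 and 66 in shFoxA1 EtOH, and 50 against 58 in both shEV lists. The part of score in the turnover was not tested. Of the members that changed, 66.1% were gains in shFoxA1 (64.4 to 67.7) and 66.0% in shEV (63.9 to 68.0), and of all other changed peaks 56.2% and 51.2% were gains. The excess was not particular to introns. Of the non-repeat intergenic peaks that changed, 67.8% were gains in shFoxA1 (66.0 to 69.6) and 61.3% in shEV (59.0 to 63.6). Gained members had a median score of 41 in shFoxA1 R1881 and 50 in shEV R1881, and those shared with EtOH had 74 and 76. Score classes were cut within each list, so the list with more members brought more peaks to them. Peaks tied with the score at the limit were kept, so a class could exceed 25% of its list. The class of highest scores held 898 members in shFoxA1 R1881 and 593 in shFoxA1 EtOH, and 529 and 300 in the shEV lists. The class of lowest scores held 1037 and 756, and 568 and 411. In the class of highest scores 73.3% of the changed peaks were gains in shFoxA1 and 82.7% in shEV. In the class of lowest scores it was 61.2% and 59.6%. The share of gains was above 58% in each intron class, distance class, GC class and host length class in both pairs. It was lowest at a GC content of 50% to 60% in shEV (58.5%) and under 40% in shFoxA1 (61.9%), and highest at 45% to 50% in both (71.5% in shFoxA1 and 69.0% in shEV).

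**Figure D3:**
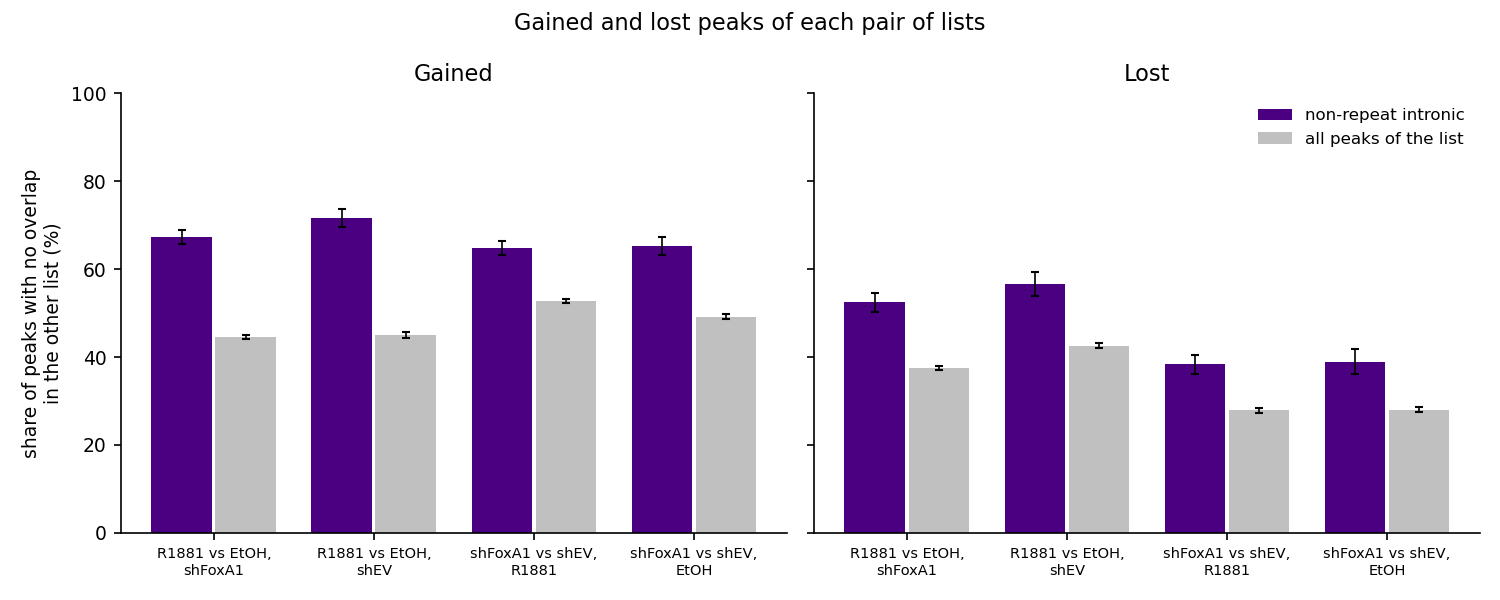
Share of peaks without an overlap in the other list of the pair (y axis, percent), gained on the left and lost on the right, for non-repeat intronic peaks and for all peaks of the list; whiskers are 95% Wilson intervals for counting error. Gained non-repeat intronic peaks reach 67.3% and 71.7% in the R1881 pairs, where all peaks stand at 44.5% and 45.0%.

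The excess of gains with R1881 was also present at equal list lengths. When every list was shortened by score to the 24948 peaks of the shortest, non-repeat intronic peaks numbered 1765 in shFoxA1 R1881, 1210 in shFoxA1 EtOH, 1715 in shEV R1881 and 1194 in shEV EtOH. Lists of equal length have nearly as many gains as losses over all peaks by construction. This held the other peaks, which are most of each list, near equality. Of the changed members 65.5% were then gains in shFoxA1 and 63.8% in shEV, beside 48.5% and 48.7% of the other changed peaks. When each list was held to its best 10000 by score, the shares were 74.2% and 71.9%, against 48.1% and 48.3%.

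The highest-scoring members gained with R1881 were at genes with varied roles, ranked among members whose nearest gene the deposited annotation types as protein-coding. In shFoxA1 cells they were at RBFOX3, a neuronal splicing factor gene (score 2955, intron 2, and a GC content of 59.9%, just inside the limit), CEP120, which encodes a centriole protein (838, intron 6), CATSPERB, a sperm ion channel subunit gene and host of a peak assigned to PPP4R3A (699, intron 22), and TACC2, which encodes a microtubule-associated coiled-coil protein (624, intron 1). SGPP2, a sphingosine phosphate phosphatase gene (537), COL4A2, a collagen IV gene and host of a peak assigned to COL4A2-AS2 (494), STOX2 (466) and KCNMA1, the gene of a calcium-activated potassium channel (452), followed. All 8 of these regions were present in shEV R1881 as well and absent from either EtOH list. In shEV cells the highest were again CEP120 (790) and TACC2 (577), then ADAM2, a sperm surface protein gene (406), CHRNA7, a nicotinic receptor subunit gene (366), ABHD2, a hydrolase gene (352), ZNF518B (339, hosted by CLNK), TMTC2 (339) and CARMIL1, which encodes an actin capping protein regulator (326). Of these 8, all but ZNF518B and TMTC2 were present in shFoxA1 R1881 and absent from either EtOH list, and those 2 had a peak in both shFoxA1 lists. The CEP120 peak spanned chromosome 5, 123396851 to 123398167, in shFoxA1 R1881 and 123397157 to 123398110 in shEV R1881. The TACC2 peak spanned chromosome 10, 122120952 to 122121510, and 122120924 to 122121516 in the same lists. The CHRNA7 peak lay in an intron of a locus with near-identical copies nearby, where read placement was not assessed.

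Losses with R1881 were seen at other genes. In shFoxA1 cells the highest-scoring lost members were at ACSBG2, an acyl-CoA synthetase gene (211), PLD1, the phospholipase D gene (188), ATP8B1, a phospholipid flippase gene (188), PRKD1, the protein kinase D gene (166), LHFPL2 (166) and RFTN1, a lipid raft protein gene and host of a peak assigned to OXNAD1 (155). In shEV cells they were at VEPH1, host of a peak assigned to CCNL1 (301), MCUR1, a regulator of mitochondrial calcium uptake (276), PDE4D, a cAMP phosphodiesterase gene (203), GNAT3, the gene of a taste G protein subunit (180), PDE7A, another phosphodiesterase gene (169), and USP36, a deubiquitinase gene (147). Of these 12 regions, 3 had a peak in both EtOH lists and in neither R1881 list, at PLD1, VEPH1 and PDE4D, whereas MCUR1, GNAT3 and PDE7A had a peak in both shFoxA1 lists, and ATP8B1 and LHFPL2 in both shEV lists. At PRKD1 the merged region also held an R1881 peak that did not overlap the lost one.

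To ask whether R1881 moved the same regions with both hairpins, the peaks of the 4 lists were merged into 61118 regions, 5987 of which held a non-repeat intronic peak. The shFoxA1 and shEV pairs share no library. Of these regions 604 appeared with R1881 in both pairs, 178 disappeared in both, and 85 and 84 moved in opposite ways. An odds ratio was taken over the regions that changed in both pairs, with the rest left out. Regions that appeared in the shFoxA1 pair had 15.1 times the odds of appearing, rather than disappearing, in the shEV pair (interval 10.7 to 21.3). The reference was regions that disappeared in the shFoxA1 pair. Over the other regions that changed in both pairs, the ratio was 3.82 (3.44 to 4.23). Regions found only in the 2 R1881 lists made up 10.1% of those with a non-repeat intronic peak (9.35 to 10.9) and 4.75% of other regions (4.57 to 4.93). Regions found only in the 2 EtOH lists made up 2.97% and 3.24%. The regions were otherwise less widely shared: 11.8% had a peak in all 4 lists, against 19.8% of other regions, and 26.4% had one in shFoxA1 R1881 alone, against 18.9%. In the 604 R1881-only regions the centres of the shFoxA1 and shEV peaks were a median of 88.5 bp apart. The median score there was 65 in shFoxA1 R1881 and 58 in shEV R1881, below the medians of 142 and 95 in the 706 regions of all 4 lists.

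**Figure D4:**
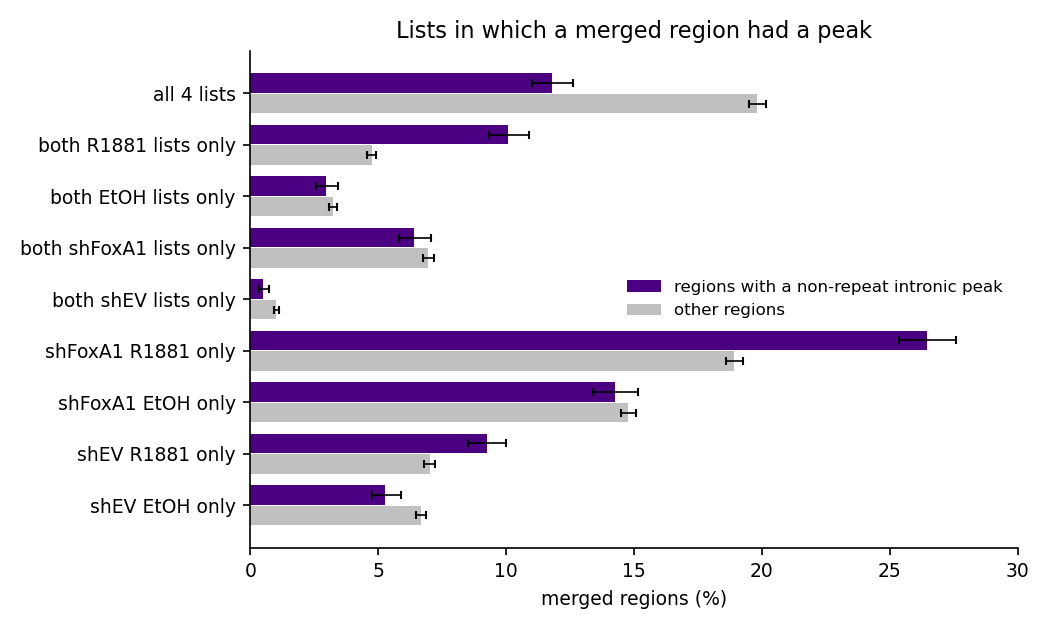
Share of merged regions (x axis, percent) by the lists in which they had a peak (y axis), for 5987 regions with a non-repeat intronic peak and for 55131 other regions; whiskers are 95% Wilson intervals for counting error. Regions of both R1881 lists only make up 10.1% and 4.75%, and those of all 4 lists 11.8% and 19.8%.

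Of the 604 R1881-only regions 377 had a non-repeat intronic peak in both R1881 lists. Among these the leading ones by combined rank were in TBC1D22A, where the peak is assigned to the antisense gene TBC1D22A-AS1 and so does not enter the ranking of gained members above (scores 933 in shFoxA1 R1881 and 1373 in shEV R1881), CEP120, TACC2, CHN2, a Rac GTPase-activating protein gene (669 and 275), CATSPERB, ADAM2, SH3BP4 (466 and 238), KCNMA1 (452 and 226), ABHD2 (281 and 352) and the CHRNA7 locus. Of the 178 EtOH-only regions 84 had a non-repeat intronic peak in both EtOH lists. The leading ones among these were assigned to C1orf143 (166 in shFoxA1 EtOH and 180 in shEV EtOH), PLD1 (188 and 105), PRSS2 (103 and 105) and TBC1D30 (113 and 85). Another lay in an intron of STARD13 (134 and 58). The R1881-only region in RBFOX3 intron 2 (2955 and 886) and the EtOH-only region at VEPH1 (272 and 301) had a member in 1 list each and were not ranked here. RBFOX3 held both kinds: its intron 3 had an EtOH-only region (123 and 58). R1881-only regions were assigned to 414 of 20033 protein-coding genes (2.07%) and EtOH-only regions to 125 (0.624%). There were 23 genes with 2 or more R1881-only regions. SPIDR, a DNA repair scaffold gene, TPD52, which encodes tumour protein D52, and CARMIL1 had 3 each. Those with 2 included AMD1, the gene of the polyamine enzyme S-adenosylmethionine decarboxylase, SOAT1, which encodes a cholesterol esterifying enzyme, EGFR, PARD3, BMP6, LIMCH1, TRAF4 and PPFIBP2. Of the regions assigned to AMD1, 1 lay in an intron of CDK19, and those assigned to TRAF4 lay in introns of NEK8 and FAM222B. Of the 23 genes LIMCH1 alone also had an EtOH-only region.

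Knockdown of FoxA1 was compared with the empty vector, to ask which mTOR peaks depend on FoxA1. As deposited, the shFoxA1 lists held more non-repeat intronic peaks, 1.77 times as many in R1881 (1.67 to 1.88) and 1.79 times as many in EtOH (1.67 to 1.92), and all peaks were 1.52 and 1.41 times as many. In R1881, 2101 of 3242 members were gained (64.8%) and 701 of 1829 lost (38.3%), against 52.8% and 27.9% of all peaks. In EtOH, 1395 of 2136 were gained (65.3%) and 465 of 1194 lost (38.9%), against 49.2% and 28.0%. Gains made up 75% of the changed members in both treatments, and 74.1% and 70.9% of the other changed peaks. At equal list lengths the share of gains stood near 50% for members and for other peaks. Over all peaks the cut itself sets it near 50%. With all lists shortened to 24948 peaks, members numbered 1765 in shFoxA1 R1881 and 1715 in shEV R1881, and in EtOH 1210 with shFoxA1 and 1194 with shEV, and gains made up 51.3% and 50.4% of the changes, against 50.4% and 50.5% among the other changed peaks. Among the 10000 highest-scoring peaks gains made up 49.9% of the changed members in R1881 and 52.3% in EtOH, against 50.2% and 50% of the other changed peaks. In the lists as deposited, the share of gains among GC classes of members was highest at 50% to 60%. In R1881 it was 85.9% at 50% to 60% GC and 58.1% under 40% GC, and in EtOH 84.9% and 68.2%. Classes outside the members also had high shares. Peaks with 60% GC or more outside promoters had 87.3% in R1881 and 85.7% in EtOH, and promoter peaks 87.8% and 86.9%. The part of GC in the result was not tested. Among regions that changed with knockdown in both treatments, the odds ratio for moving the same way was 1.61 (1 to 2.60) over member regions. Over other regions it was 1.76 (1.56 to 1.98). Over member regions it was 2.10 (1.31 to 3.36) with the shortened lists and 2.08 (1.36 to 3.19) when overlap counted only with members, and the other alternatives ranged between 1.48 (0.894 to 2.46) with GC below 55% and 2.37 (0.855 to 6.57) with the 10000 highest-scoring peaks.

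By the same ranking, the highest-scoring members gained with the hairpin in R1881 were at C8orf74 (269), OGFOD3, host of a peak assigned to HEXD (244), LMAN1L (221), RAB11FIP4, a Rab11 effector gene (221), MIER2, host of a peak assigned to PLPP2 (221), PRKCH and PRKCZ, which encode protein kinase C isoforms (209 and 197), and EPN2, an endocytic adaptor gene (209). The highest lost were at ADI1 (214), CEP89 (214), NECAB1, host of a peak assigned to C8orf88 (191), ORC5, a replication origin factor gene (179), WWOX (179) and ARHGAP6 (168). The GC content of the 8 gained peaks ranged between 49.7% at PRKCH and 59.2% at PLPP2, and that of the 6 lost peaks between 31.3% at ORC5 and 50.1% at CEP89. In EtOH the highest gained members were at ACSBG2 (211), MTRR, a methionine synthase reductase gene (188), GAGE1 (177), which has near-identical copies, SLC1A2, a glutamate transporter gene (155), RFTN1 (155), SPINT2, host of a peak assigned to C19orf33 (144), ERC1 (144) and ATXN7L1 (144). The highest lost were at USP36 and BANK1 (147 each), KMT2C, a histone methyltransferase gene (115), LPCAT1, host of a peak assigned to SLC6A3 (105), ATXN7L1 (105) and NIPSNAP3B (105). The regions at PLPP2, RAB11FIP4, PRKCH and EPN2 had a peak in the shFoxA1 R1881 list alone. Regions of both shFoxA1 lists only numbered 384, and 213 of them had a non-repeat intronic peak in each, which leaves out the region at GAGE1 (132 in shFoxA1 R1881 and 177 in shFoxA1 EtOH). Those 213 were led by MTRR (83 in shFoxA1 R1881 and 188 in shFoxA1 EtOH), NTNG2 (132 and 94), ZNF385B (92 and 134), LMF1 (102 and 103) and CRTAC1 (164 and 75), then MACF1, a cytoskeletal linker gene (83 and 134), GDF5 (92 and 123) and MCF2L (92 and 103). Over all 384 regions the median GC content of the shFoxA1 R1881 peaks was 48.2%, and over the 604 R1881-only regions it was 43.7%. Regions of both shEV lists only numbered 30, 14 of them with a non-repeat intronic peak in each, and included peaks at PCBP3, LPAR3, PKNOX2, EVI5, IQGAP2 and RFLNA with scores of 58 to 114 in shEV R1881.

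The genes of 9 lists were followed through both R1881 comparisons. Among 35 genes that androgen induces, 11 gained a non-repeat intronic peak and 5 lost one in shFoxA1 cells, and 7 gained and 2 lost one in shEV cells. Over all 20033 coding genes 6.39% gained and 3.59% lost one in shFoxA1 and 4.12% and 2.15% did in shEV. The list had 21 gained and 7 lost peaks in shFoxA1 and 12 and 2 in shEV. All coding genes had 1561 gained and 823 lost peaks in shFoxA1 and 962 and 482 in shEV. The median net gain of the list's 14 genes with a member was 1 and 0.5, against 0 over the 2867 coding genes with one. Of the list's gained peaks, TPD52 had 6 in shFoxA1 and 2 in shEV, and ZBTB16 had 4 in each. The gained peak at KLF9 and the stronger one at MAF, in shFoxA1 only, lay in introns of TRPM3 and WWOX. Of 12 androgen-repressed genes 1 held a member: UGT2B28, an androgen-glucuronidating enzyme gene, had a peak in shEV R1881 only (score 58). The 20 luminal transcription factor genes had 13 gained and 1 lost peaks in shFoxA1, at 5 and 1 genes, and 8 and 2 in shEV, at 6 and 2 genes. The 43 mTOR pathway genes had 11 and 3, at 9 and 3 genes, and 3 and 2, at 2 and 2 genes. The 34 lipid and sterol synthesis genes had 4 and 1, at 3 and 1 genes, and 8 and 1, at 5 and 1 genes. The 34 receptor tyrosine kinase and PI3K genes had 5 and 1 in shFoxA1, at 3 and 1 genes, and 3 and 3 in shEV, at 2 and 3 genes. The 44 long neuronal and fragile-site genes had 13 and 6, at 11 and 6 genes, and 10 and 5, at 7 and 4 genes, with a median length of 1220 kb. The 38 cell cycle genes had 2 with a member: MKI67, the proliferation marker gene, gained a peak in shFoxA1, and CCND2, a cyclin gene, lost one in each pair, at different regions. The 22 markers of basal, mesenchymal and neuroendocrine cells had 1 gained and 4 lost in shFoxA1 and 2 and 1 in shEV.

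The same lists were followed through the knockdown comparisons, in lists of unequal length. Over all coding genes 6.19% gained and 2.37% lost a non-repeat intronic peak with the FoxA1 hairpin in R1881, and 4.41% and 1.46% did in EtOH. Of the androgen-induced genes 11 gained and 3 lost one in R1881, and 6 and 1 did in EtOH. Of the luminal factor genes 5 gained and 3 lost one in R1881, and 3 and 2 did in EtOH. The mTOR pathway genes had 6 that gained and 0 that lost one in R1881, and 6 and 2 in EtOH. In the lipid list 4 genes gained and 4 lost one in R1881, and 3 and 0 did in EtOH. These comparisons share libraries with those of R1881, and the values are not independent of them.

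**Figure D5:**
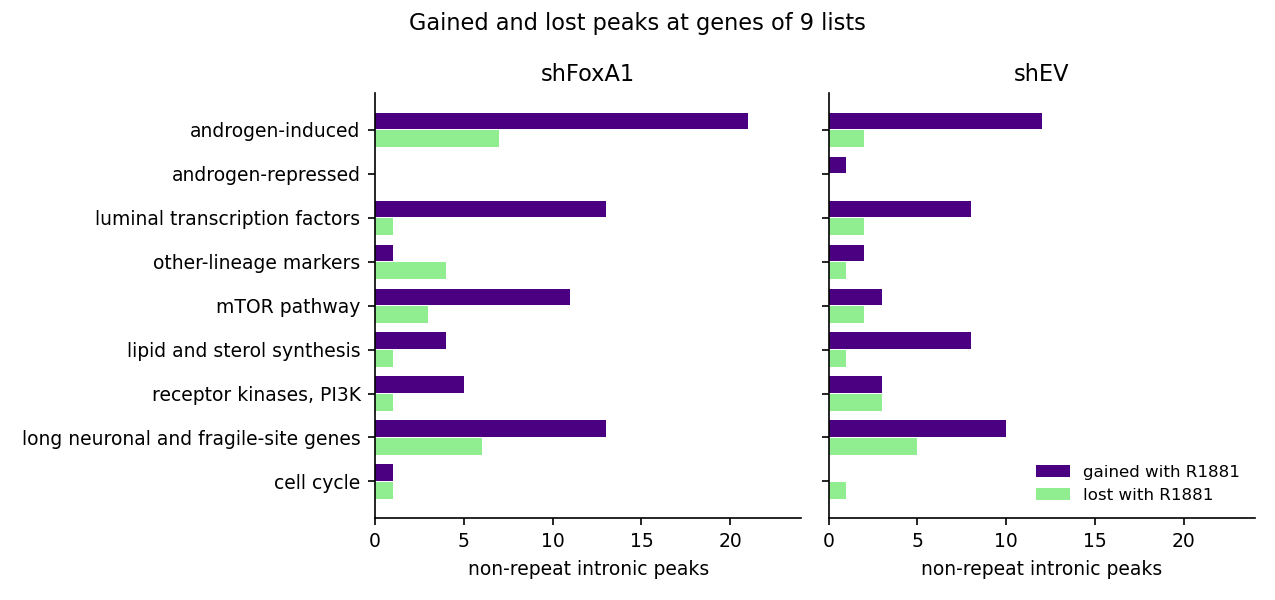
Number of non-repeat intronic peaks (x axis) gained and lost with R1881 at the genes of 9 lists (y axis), in shFoxA1 cells on the left and shEV cells on the right. The androgen-induced list has 21 gained and 7 lost peaks with shFoxA1 and 12 and 2 with shEV. All coding genes together, not drawn, have 1561 and 823 with shFoxA1 and 962 and 482 with shEV.

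ZBTB16, a zinc-finger transcription factor gene that androgen induces, held the strongest member of the androgen-induced list and 12 member regions in all, each in intron 2. The strongest, at chromosome 11, 114179093 to 114179773, had a peak in all 4 lists, with scores of 1612 and 388 in the shFoxA1 lists with R1881 and EtOH, and of 1514 and 227 in the shEV lists. Those at 114080172 to 114080971 and 114163973 to 114164340 were R1881-only, with scores of 122 and 95 and of 83 and 85 in shFoxA1 R1881 and shEV R1881. A further pair, at 114159304 to 114160414 and 114162677 to 114163299, had peaks in every list but shEV EtOH. ZBTB16 had 9 members in shFoxA1 R1881 and 6 in shFoxA1 EtOH, and 5 in shEV R1881 and 1 in shEV EtOH. In that order of lists, TPD52, which is often amplified in prostate cancer, had 6, 0, 2 and 1, all in intron 1, where its 3 R1881-only regions lay 2311 to 14703 bp from a TSS. TRPM8, a cold-sensing channel gene, had an R1881-only region in intron 9 (scores 92 in shFoxA1 R1881 and 85 in shEV R1881), where the sequence printed above lies. PMEPA1, an inhibitor of transforming growth factor beta signalling, and ABCC4, an efflux transporter gene, also gained a member in each pair, but at different regions. The PMEPA1 region with the shEV member was R1881-only, as it also had a shFoxA1 R1881 peak (49) that was not a member. NDRG1, a stress-responsive gene, had at its strongest region scores of 27 in shFoxA1 R1881 and 84 in shFoxA1 EtOH, and no peak in shEV R1881 against 105 in shEV EtOH.

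FOXA1 itself had the most regions of the luminal factor genes. Its 6 member regions lay in introns 11 to 13 of the neighbouring gene MIPOL1, between 68065 and 180518 bp from the FOXA1 TSS. Of these, 2 were R1881-only: chromosome 14, 37417915 to 37418384 (122 in shFoxA1 R1881 and 85 in shEV R1881) and 37452464 to 37452999 (49 and 34). A region at 37436486 to 37436895 had a peak in every list but shEV EtOH. These are the regions of the targeted gene, and the hairpin acts on its transcript, so they do not check the knockdown. GRHL2, an epithelial transcription factor gene, had 5 members in shFoxA1 R1881, 0 in shFoxA1 EtOH, 2 in shEV R1881 and 0 in shEV EtOH, although its strongest region had a peak in all 4 lists. SPDEF, a luminal factor gene, had 3, 0, 1 and 1, and 4 of its 5 regions lay in introns of its neighbour ILRUN. EHF had 3 members in shFoxA1 R1881 and none elsewhere. TBX3 had a region with a peak in all 4 lists (669 in shFoxA1 R1881 and 766 in shFoxA1 EtOH, 313 in shEV R1881 and 239 in shEV EtOH). Of the luminal marker genes, KLK3 and KRT18 had no member in any list, HOXB13 had 1 in shFoxA1 EtOH and 1 in shEV R1881, and KRT8 had 1 in shFoxA1 R1881 and 2 in shEV R1881. Peak lists hold no expression, so these counts say nothing about cell identity.

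Among genes of the mTOR pathway, MAPKAP1, the gene of the SIN1 subunit of mTOR complex 2, had 5 member regions. Those in intron 4 at chromosome 9, 125593327 to 125594157 (153 in shFoxA1 R1881 and 34 in shEV R1881) and 125632917 to 125633541 (122 and 67) were R1881-only. The one in intron 7 whose sequence is printed above had a peak in all 4 lists. RPTOR, the gene of the defining subunit of complex 1, had 3 members in shFoxA1 R1881, 1 in shFoxA1 EtOH, 0 in shEV R1881 and 2 in shEV EtOH, and its strongest region, in intron 3, had a peak in all 4 lists. DEPTOR, an inhibitor of mTOR, had an R1881-only region and another with a peak in all 4 lists. LPIN1, a phosphatidate phosphatase gene that belongs to the mTOR and lipid lists, had a region in intron 2 with scores of 452 in shFoxA1 R1881, 259 in shFoxA1 EtOH, 226 in shEV R1881 and 191 in shEV EtOH. EIF4EBP1, the gene of a translation repressor that mTOR phosphorylates, had a region in all 4 lists as well. At FASN, the fatty acid synthase gene, both regions lay in intron 16 of its neighbour CCDC57. One of them, at chromosome 17, 82113929 to 82114377, was R1881-only (74 in shFoxA1 R1881 and 50 in shEV R1881). SCAP, the sterol-sensing escort of the SREBP factors, had an R1881-only region in intron 1 (65 and 20). ELOVL7, a fatty acid elongase gene, had 2 members in shEV R1881 and none in the other lists. AGPAT3, an acyltransferase gene, lost a member in each pair, at different regions. The one lost in shEV kept a peak in shFoxA1 R1881 (65).

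Upstream of mTOR, IRS1, the insulin receptor substrate gene, had 1 region, in its only intron at chromosome 2, 226738632 to 226739181, and it was R1881-only (153 in shFoxA1 R1881 and 191 in shEV R1881). EGFR, the epidermal growth factor receptor gene, had 3 regions in intron 1 and none of them had a peak in an EtOH list. INSR, the insulin receptor gene, ALK, NTRK2 and ERBB2 had regions with a peak in all 4 lists. Of the long genes, NRXN3 and LRRC4C had their strongest regions in all 4 lists, while NTM, DLG2, FHIT, IMMP2L and CDH18 gained a member in both pairs and WWOX lost one in both. Of these, NTM and IMMP2L also lost a member in shFoxA1, DLG2 also lost one in shEV and WWOX also gained one in shEV. At DLG2 and FHIT the gained members lay at different regions in shFoxA1 and in shEV. Among the other-lineage markers CHGA, the chromogranin A gene, lost a member in each pair. They were different regions in intron 5 of ITPK1, 41536 and 50548 bp from the CHGA TSS. The one lost in shFoxA1 was EtOH-only (84 in shFoxA1 EtOH and 58 in shEV EtOH). The one lost in shEV had peaks in both shFoxA1 lists (175 with R1881 and 94 with EtOH). SYT1 gained a member in both pairs and lost another in shFoxA1. TP63 and TWIST1 lost their only member in shFoxA1, and CDH2 gained its only one in shEV. The TWIST1 member lay in an intron of HDAC9, 272067 bp from the TWIST1 TSS. KRT5, KRT14, VIM, ZEB1 and SYP had no member in any list.

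The genes with the most member regions were PRKD1 with 20, NEDD4L, a ubiquitin ligase gene, with 14, ZBTB16 with 12, ATXN7L1 with 11 and CASZ1, PPFIA2, KANSL1 and TPTE with 10 each, then CUX1 and PSD3 with 9. These genes did not share a direction. PRKD1 had 5 members in shFoxA1 R1881, 9 in shFoxA1 EtOH, 5 in shEV R1881 and 8 in shEV EtOH, with 5 gained and 7 lost in shFoxA1 and 3 gained and 6 lost in shEV. Of its 20 regions 19 were in intron 1, and most had a peak in 1 or 2 lists only. PSD3 had 8, 3, 2 and 2 members and ATXN7L1 3, 6, 0 and 3. CASZ1 had 3, 8, 1 and 0, so most were in shFoxA1 EtOH. Regions at KANSL1 and TPTE lie among near-identical copies, where read placement was not assessed. In all, 2867 coding genes (14.3%) had a member in some list, 2028 of them at 1 region and 80 at 5 or more.

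The strongest regions with a non-repeat intronic peak in all 4 lists were as follows. ARHGEF18 led in intron 5 at chromosome 19, 7450299 to 7451145, with scores of 7452 in shFoxA1 R1881, 7864 in shFoxA1 EtOH, 6603 in shEV R1881 and 6661 in shEV EtOH. KCTD2 followed in intron 2, with 4435, 2657, 2642 and 1204 in the same lists. LINC00324 (1792, 1934, 918 and 1359), ZNF813 (1595, 1482, 1049 and 1102) and LINC01237, host of a peak assigned to LOC285097 (1630, 1239, 1269 and 746), came next. The others were in CSMD1, ZNF274, ZFP2, FAM24A and CELF4. Of the 10, 3 were in zinc-finger genes (ZNF813, ZNF274 and ZFP2), in shFoxA1 R1881 peaks of 2675 to 3760 bp. All 10 peaks were wider than the median of 475 bp for non-repeat intronic peaks of that list. Those in LINC00324 (3328 bp) and LINC01237 (2928 bp) were about as wide as the zinc-finger ones.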

How the data were processed

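mTOR ChIP-seq peaks of 4 libraries (paired-end reads of 150 bp, hg38) were used. Per the submitters' processing notes, reads were handled with Trimmomatic 0.36, BWA 0.7.12, Picard 2.0.1, MACS2 2.1.1.20160309at, HOMER 4.11.1 and deepTools 3.5.0. What each tool did, the peak threshold and the control are not stated in those notes or the labels, and peaks were listed per library. The deposited score of each peak is the authors', its definition is not given, and it served only to rank peaks within a list. GC content was deposited as a fraction by the authors and printed as a percent. The detailed annotation holds 1 entry per peak, so a peak may still touch a repeat outside that entry. Peaks were counted and overlapped with Python 3.11.15, pandas 2.3.3 and scipy 1.17.1, after tests on simulated lists. Each group had 1 library, so shares carry 95% Wilson intervals and no test was made. Sequences came from RefSeq (GRCh38.p14) promoter windows. Genes were named by score: per pair the 8 highest gained and 6 highest lost members whose nearest gene the deposited annotation types as protein-coding (COL4A2-AS2 included), and, among regions with a member in each list of a sharing pattern, the leading ones by summed rank. The members and gene lists were chosen with earlier results of these data known. The sequences shown were picked after the values of their peaks were seen. Alternatives were other GC and distance limits, overlaps and list lengths. Some genes and 1 gene list are not reported here.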

Additional observations from a re-analysis of the deposited data

Results flagged for a closer look

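The 22 markers of basal, mesenchymal and neuroendocrine cells had a net change of -3 non-repeat intronic peaks with R1881 in shFoxA1 cells (1 gained, 4 lost) and of 1 in shEV cells (2 gained, 1 lost). The directions were opposite, and the difference was not tested. On sequences other than chromosomes 1 to 22, X and Y, which the comparisons leave out, 8 peaks of the shFoxA1 R1881 list and 5 of shFoxA1 EtOH met the other criteria, against 2 and 3 in the shEV R1881 and shEV EtOH lists.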

How the results depend on the processing

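No paired analysis was possible because each group had 1 library, and for the same reason no replicate could be left out. Of 62 values under alternatives, 41 stayed close to the reported value (counts within 1.5 times, shares and odds ratios inside the reported 95% interval), 20 moved and 1 reversed. With each list held to its best 10000 peaks by score, members numbered 564 in shFoxA1 R1881, 335 in shFoxA1 EtOH, 544 in shEV R1881 and 325 in shEV EtOH. With lists shortened to the shortest, chosen after seeing the data, they numbered 1765 in shFoxA1 R1881 and 1210 in shFoxA1 EtOH. The share of gains with R1881 moved to 74.2% in shFoxA1 and 71.9% in shEV with the 10000 highest-scoring peaks, and to 64.1% and 63.7% when overlap counted only with members of the other list. In shEV it was 63.8% with shortened lists. The share of gains with knockdown reversed to 49.9% in R1881 and moved to 52.3% in EtOH with the 10000 highest-scoring peaks, and moved to 51.3% and 50.4% with shortened lists, to 73.3% and 72.8% with GC below 55%, and to 70.6% and 70.2% when overlap counted only with members. The odds ratio for R1881 moved to 48.1 with the 10000 highest-scoring peaks and to 8.40 when overlap counted only with members. By construction, shorter lists hold fewer peaks, and lists of equal length have nearly equal gains and losses over all peaks. The other causes were not tested. Leaving out members with a CpG island entry was also chosen after seeing the data and moved no value. Without read totals the depth behind each list is unknown.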
